A study of Mus musculus with 12 samples.

Results

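The genes described here are Htt, the huntingtin gene that carries the mutation of Huntington's disease, and 9 genes that flank it on mouse chromosome 5. They were chosen by name, and each of the 10 had 1 probe set of its own among the 19938 genes represented on the arrays. In RefSeq order on GRCm38.p6 they run Sh3bp2, Add1, Mfsd10, Nop14, Grk4, Htt, Msantd1, Rgs12, Lrpap1 and Adra2c. RNA was measured with 12 whole-transcript microarrays of striatum from 90-day-old male mice, in 4 groups of 3. All mice were homozygous for a knock-in allele at Htt (called Hdh in the labels), either HdhQ20/Q20, the control allele, or HdhQ111/Q111, the expanded allele. Each allele was combined with mGluR5+/+, in which Grm5, the gene of a metabotropic glutamate receptor, was intact, or with mGluR5-/-, in which both copies were knocked out. All groups shared 1 mixed background, made of the strains 129, CD-1, C57BL/6 and FV, and none of them carried an unmodified Htt gene. Whether the 3 arrays of a group stand for different animals is not stated, and the p-values then measure only the spread between these samples, which may be technical.

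Huntingtin is a large scaffold protein of vesicle transport, autophagy and transcription. A lengthened run of glutamine near its start, encoded by a CAG repeat, causes Huntington's disease, in which the projection neurons of the striatum are lost first. A knock-in mouse carries its repeat in the animal's own gene, so that the gene stays under its own promoter and among its own neighbours. Chromosome around an edited gene descends with it from the strain in which the edit was made, and genes there can differ between lines for that reason. They are called passenger genes. The arrays report the amount of transcript and not the length of the repeat, and which probes of the Htt set lie near the repeat is not known here.

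The promoter of Htt is shown because a knock-in gene is read from its own promoter. The sequence is the RefSeq reference (GRCm38.p6, strain C57BL/6J), not that of the knock-in alleles, and spans chr5:34761490-34761789 on the plus strand, from 250 bases before a start site to 50 after it. Capitals mark GC boxes (GGGCGG on either strand) and a cAMP response element (TGACGTCA).
Htt: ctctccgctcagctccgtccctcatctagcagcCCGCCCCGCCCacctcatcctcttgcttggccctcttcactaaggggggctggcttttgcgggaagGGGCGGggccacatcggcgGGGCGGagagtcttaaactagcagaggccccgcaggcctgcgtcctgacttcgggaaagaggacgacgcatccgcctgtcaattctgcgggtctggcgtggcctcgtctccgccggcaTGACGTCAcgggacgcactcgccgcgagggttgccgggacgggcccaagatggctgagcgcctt

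The Htt window held 4 matches to the GC box, of which the first pair overlap, and 1 to TGACGTCA, which began 14 bases before the start site. Of 32851 windows of this length over all genes, 35.7% held a GC box and 1.79% held TGACGTCA. All 10 genes had a window, 12 in total, and 8 of the 12 held a GC box on either strand. Of the 12, TGACGTCA was found in the Htt window alone, CCAAT (37.4% of all windows) in 3, not including Htt, and TATAAA (13.6%) in none. G and C made up 67.3% of the Htt window against a median of 52.7% over all windows. Such matches describe the letters of the window and show no binding.

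Nop14 and Grk4, the genes next to Htt on its other side, are transcribed away from each other from start sites 231 bases apart. Their windows, chr5:34660099-34660398 on the minus strand and chr5:34660129-34660428 on the plus strand, share 270 bases. They are shown because 1 of these genes was measured above the filter on low values and the other was not. Capitals mark the 50 bases from each start site onward.
Nop14: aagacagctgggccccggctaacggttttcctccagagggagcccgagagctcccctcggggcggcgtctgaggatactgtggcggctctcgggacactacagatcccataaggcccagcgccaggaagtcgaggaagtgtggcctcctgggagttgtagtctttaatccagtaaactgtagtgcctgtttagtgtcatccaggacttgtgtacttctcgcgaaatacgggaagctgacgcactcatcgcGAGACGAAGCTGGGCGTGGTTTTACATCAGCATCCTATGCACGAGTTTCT
Grk4: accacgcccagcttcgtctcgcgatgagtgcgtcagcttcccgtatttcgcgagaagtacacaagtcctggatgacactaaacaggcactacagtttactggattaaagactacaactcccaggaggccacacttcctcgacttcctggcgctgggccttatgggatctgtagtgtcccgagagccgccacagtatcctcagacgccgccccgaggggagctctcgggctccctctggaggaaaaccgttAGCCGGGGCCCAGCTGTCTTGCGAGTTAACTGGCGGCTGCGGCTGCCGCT

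Median log2 signal ranged from 7.05 to 7.16 over the arrays, whose number sets the limit on precision. A gene was tested when its probe set lay above the 25th percentile of the array, a level of 5.69 to 5.94, on at least 3 arrays, which kept 16721 genes and 9 of the 10 described here. Those 9 lay above that level on all 12 arrays. The label of the tissue was checked on markers of striatal projection neurons: all 8 that were measured, of 10 listed, lay above the median of every array, with gene means of 10.97 to 12.87. Of 5 choroid plexus markers none lay above the median on all arrays, and of 3 measured cortical markers 1 did. No marker of the 7 cell types looked at was called between Q111 and Q20 mice on average. All 4 endothelial markers stood lower on average in Q111 mice. The mean of that list per array was 7.39 to 7.79, against 7.69 to 8.02 in Q20 mice. All 3 oligodendrocyte markers stood higher, their list mean being at least 10.73 on Q111 arrays and at most 10.84 on Q20 arrays. The 3 measured cortical markers also stood higher on average, with overlapping list means of 6.42 to 7.04 on Q111 and 6.11 to 7.07 on Q20 arrays. Their part in the results below was not tested. For Grm5 the mean was 12.00 ± 0.07 (SD, n = 3) and 11.94 ± 0.08 where mGluR5 was intact, in Q20 and Q111 mice, and 11.06 ± 0.12 and 11.07 ± 0.08 where it was knocked out. In bulk tissue, fewer cells of a type and less RNA per cell cannot be told apart.

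The Q111 allele was first compared with the Q20 allele over both mGluR5 genotypes, 6 arrays against 6. Htt RNA was slightly lower on the Q111 arrays, by an amount that did not pass the test, and its 8 tested neighbours differed by less. None of the 9 genes was called (limma, Benjamini-Hochberg adjusted p below 0.05), where 1.32% of all tested genes were called. At an unadjusted p below 0.05 the count was 1 of 9, Htt, against 11.4% of all tested genes. By the criteria stated for the study, an unadjusted p below 0.05 and at least 1.5-fold, it was 0 of 9. Those criteria called 51 of all 16721 tested genes. The log2 differences ran from -0.15 to 0.06 with a median of -0.01, beside a median of -0.02 over all tested genes. Of the 9 genes 6 stood below 0, as did 56.6% of all tested genes.

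Htt read 9.86, 10.05 and 9.92 on the Q20 arrays with mGluR5 (replicates 1 to 3) and 9.88, 9.92 and 9.92 on the Q20 arrays without it. On the Q111 arrays it read 9.76, 9.84 and 9.73 with mGluR5 and 9.76, 9.83 and 9.71 without. The highest Q111 array was still under the lowest Q20 array, by a gap of 0.02. The groups did not overlap in this way for 1.21% of all tested genes. The group means, from highest to lowest, were 9.94 ± 0.09 (SD, n = 3) for Q20 with mGluR5, 9.91 ± 0.02 for Q20 lacking it, 9.78 ± 0.06 for Q111 with it and 9.77 ± 0.06 for Q111 lacking it. In this order the only neighbouring groups whose arrays did not overlap were Q20 mice without and Q111 mice with mGluR5. These groups, picked by rank, differ in both genotypes, and no share over all tested genes was computed for them. In the Q111 effect, at 3 against 3 arrays, 9.69% of all tested genes lay apart with mGluR5 and 19.1% without. The Htt difference between the alleles, over both mGluR5 genotypes, was -0.15 ± 0.06 log2 units (SE, limma adjusted p = 0.344). This is a ratio of 0.90 with a 95% interval of 0.82 to 0.98 that is not adjusted for the number of genes. Under the 23 alternative settings run for this contrast it stayed between -0.17 and -0.11, with adjusted p from 0.14 to 0.673.

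**Figure D1:**
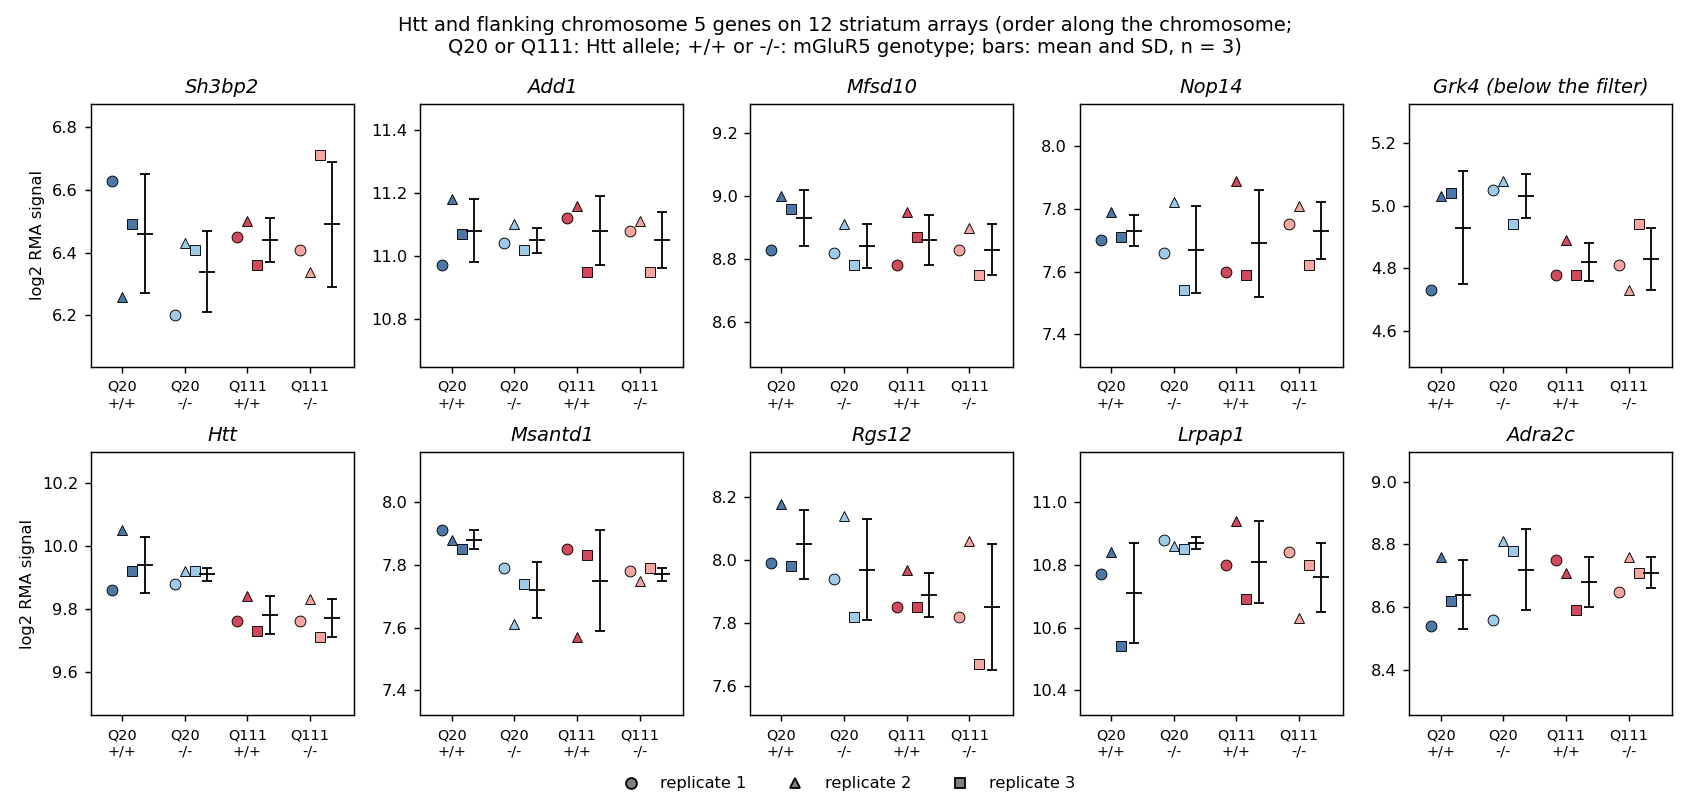
Log2 RMA signal of the 10 genes on each of the 12 arrays, in chromosome order, with symbols for the replicate number and bars for the group mean and SD (n = 3); all panels span the same height in log2 units. In the Htt panel the 6 Q111 arrays, at 9.71 to 9.84, lie below the 6 Q20 arrays, at 9.86 to 10.05, while in the other panels the alleles overlap.

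On the far side of Msantd1 lies Rgs12, which encodes a protein that speeds the return of inhibitory G proteins to rest. It had the next largest difference of the 9, -0.14 ± 0.08 (SE, limma adjusted p = 0.569). Rgs12 read 7.99, 8.18 and 7.98 on Q20 arrays with mGluR5 and 7.94, 8.14 and 7.82 on those without. On Q111 arrays it read 7.85, 7.97 and 7.85 with mGluR5 and 7.82, 8.06 and 7.67 without. Of the 6 Q111 arrays 2 lay below the lowest Q20 array, and the rest overlapped with the Q20 arrays. The 95% interval of the ratio was 0.81 to 1.03. With the interquartile range of each array as a covariate the Rgs12 difference was -0.07 ± 0.06 and that of Htt -0.12 ± 0.05.

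Msantd1, whose name records a DNA-binding domain of the Myb and SANT kind, is the first gene after Htt. It read 7.91, 7.88 and 7.85 on Q20 arrays with mGluR5 and 7.79, 7.61 and 7.74 on those without. On Q111 arrays it read 7.85, 7.57 and 7.83 with mGluR5 and 7.78, 7.75 and 7.79 without. The averaged difference was -0.04 ± 0.07 (SE), with arrays of both alleles interleaved. Its highest group, Q20 mice with mGluR5 at 7.88 ± 0.03 (SD, n = 3), did not overlap with the next, Q111 mice without mGluR5 at 7.77 ± 0.02. These groups too were picked by rank and differ in both genotypes. Such separation was common at 3 against 3 arrays, in 9.69% and 19.1% of all tested genes for the Q111 effect with and without mGluR5.

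Among the genes before Htt, Nop14, a nucleolar protein needed to build the small ribosomal subunit, differed by 0.01 ± 0.07 (SE). It read 7.70, 7.79 and 7.71, then 7.66, 7.82 and 7.54 on Q20 arrays with and without mGluR5, and 7.60, 7.89 and 7.59, then 7.75, 7.81 and 7.62 on Q111 arrays. Its Q111 and Q20 arrays covered nearly the same range. Add1, which encodes alpha-adducin, a cap of actin filaments that ties them to spectrin, stayed between 10.95 and 11.18 on all 12 arrays. The 95% interval of its log2 difference was -0.14 to 0.14. Mfsd10, a membrane transporter of organic anions, had group means of 8.83 to 8.93 and a ratio of Q111 to Q20 of 0.97 (95% interval 0.89 to 1.07).

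Sh3bp2, an adaptor of immune receptor and kinase signalling, had the largest positive difference of the 9, 0.06 ± 0.08 (SE, limma adjusted p = 0.834). Its group means were 6.46 ± 0.19 (SD, n = 3) and 6.34 ± 0.13 in Q20 mice with and without mGluR5, and 6.44 ± 0.07 and 6.49 ± 0.20 in Q111 mice. The range over all arrays, 0.52, was wider than the 0.14 between its highest and lowest group means. On the other side, Lrpap1, a chaperone of the LDL receptor family, had a log2 difference of -0.01 ± 0.07 (SE). Adra2c, an inhibitory adrenergic receptor known for its expression in striatum, had a ratio of 1.01 (0.92 to 1.12) and lay between 8.54 and 8.81 throughout.

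The intervals bound how large a change in array signal could have gone unseen, which need not equal the change in RNA. For Grm5, with both copies knocked out, the signal ratio was 0.53 (95% interval 0.48 to 0.59). Why signal remained there was not tested. For all 9 tested genes the farthest bound of any 95% interval of the averaged Q111 effect was 1.24-fold, for Rgs12. Standard errors of 0.06 to 0.08 on these genes compared with a median of 0.08 over all tested genes. An interval of this kind does not show that the alleles were equal.

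Grk4, the gene between Nop14 and Htt, encodes a kinase that phosphorylates active G protein-coupled receptors. It lay below the filter level on all 12 arrays and was not tested. Its values were 4.73, 5.03 and 5.04 on Q20 arrays with mGluR5 and 5.05, 5.08 and 4.94 on those without. On Q111 arrays they were 4.78, 4.89 and 4.78 with mGluR5 and 4.81, 4.73 and 4.94 without. The filter is a percentile and not a call of presence or absence, and no fold was drawn from these values.

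The allele was then compared separately in mice with and without mGluR5, in disjoint sets of 3 against 3 arrays. The Htt difference was nearly equal in both, -0.16 ± 0.08 (SE, limma adjusted p = 0.782) with mGluR5 and -0.14 ± 0.08 (adjusted p = 0.675) without. None of the 9 genes was called in either, against 0.574% and 0.885% of all tested genes, and none had an unadjusted p below 0.05, against 6.84% and 9.44%. With mGluR5 the 3 Q111 arrays lay apart from the 3 Q20 arrays for 3 of 9 genes, Htt, Msantd1 and Rgs12, all lower in Q111. This held for 9.69% of all tested genes. The gaps were 0.02, 0.01 and 0.01, and the Msantd1 and Rgs12 differences were -0.13 ± 0.09 and -0.16 ± 0.11. Without mGluR5 the arrays lay apart for Htt, by 0.05, and for Lrpap1, by 0.01, which is 2 of 9 genes against 19.1% of all tested genes.

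Lrpap1 read 10.77, 10.84 and 10.54 on Q20 arrays with mGluR5 and 10.88, 10.86 and 10.85 on those without. On Q111 arrays it read 10.80, 10.94 and 10.69 with mGluR5 and 10.84, 10.63 and 10.80 without. The Q111 difference for Lrpap1 was 0.10 ± 0.10 (SE) with mGluR5 and -0.11 ± 0.10 without. The test of that change in the allele effect, the interaction, gave -0.20 ± 0.14 (limma adjusted p = 1.0). For Msantd1, whose differences were -0.13 ± 0.09 and 0.06 ± 0.09, the interaction was 0.19 ± 0.13 (adjusted p = 1.0). None of the 9 genes was called for the interaction, where 0.437% of all tested genes were, and 0 had an unadjusted p below 0.05, against 5.37%. For Htt the interaction was 0.03 ± 0.12, with a 95% interval of the ratio of 0.85 to 1.22. The intervals of the interaction reached up to 1.44-fold, for Sh3bp2.

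**Figure D2:**
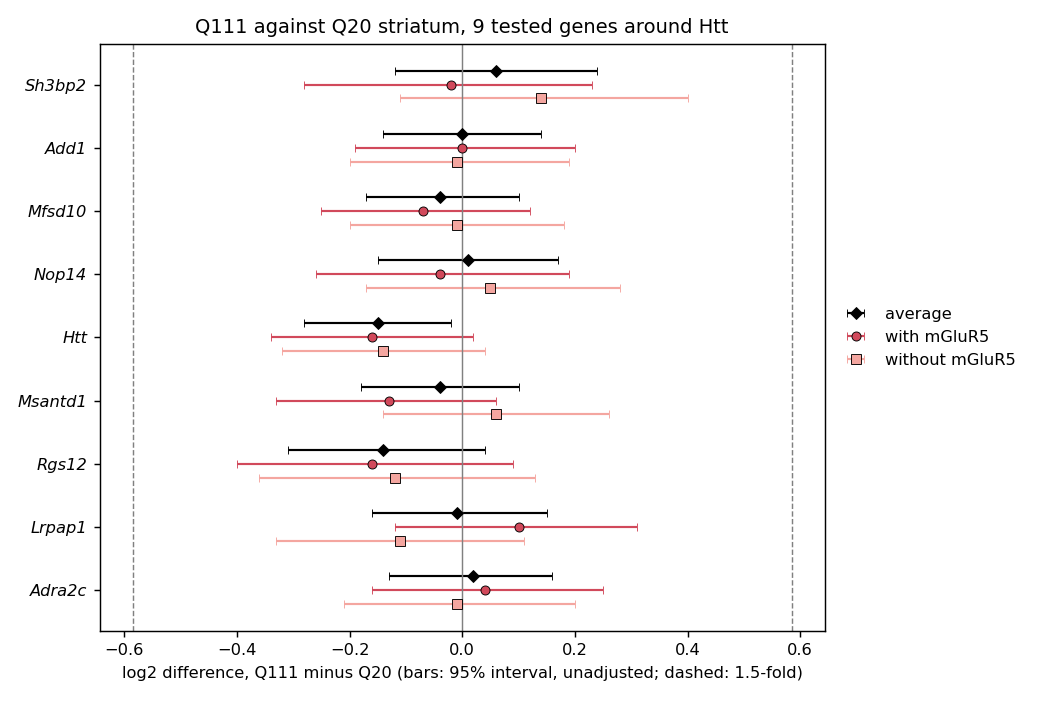
Log2 difference of Q111 minus Q20 for the 9 tested genes, averaged over mGluR5 genotypes (diamonds) and in mice with (circles) and without mGluR5 (squares), with unadjusted 95% intervals; dashed lines mark 1.5-fold. The averaged Htt value of -0.15 has an interval of -0.28 to -0.02, the others include 0, and every interval lies inside the dashed lines.

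Loss of mGluR5 was compared over both Htt alleles, 6 arrays against 6. It is an edit of another gene. The 9 log2 differences lay between -0.07, for Msantd1, and 0.05, for Lrpap1 and Adra2c, and their median was -0.03 beside 0.01 over all tested genes. The median size of the difference, sign aside, was 0.05 for the 9 genes, beside 0.04 for the same genes in the averaged Q111 effect. None was called by limma, against 0.293% of all tested genes. None had an unadjusted p below 0.05, against 5.32%. In 0 of 9 did the arrays lie apart, against 0.305%. Htt stood at -0.02 ± 0.06 (SE), a ratio of 0.99 with a 95% interval of 0.90 to 1.08. Grm5 itself changed by -0.91 ± 0.07 in the same contrast (limma adjusted p = 5.81e-06).

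The arrays differed among themselves within groups, and several of the 10 genes moved with that difference. Replicate 2 had the widest interquartile range of signals in all 4 groups, and over the 12 arrays the range went from 2.56 to 2.95 log2 units. Htt, Add1, Mfsd10, Nop14 and Rgs12 were highest in replicate 2 of all 4 groups, 5 of the 10 genes, as were 11.7% of all tested genes. Msantd1 went the other way in 3 of 4 groups, where replicate 2 was lowest. Group means of the interquartile range were 2.80 ± 0.08 (SD, n = 3) and 2.83 ± 0.12 in Q20 mice with and without mGluR5, and 2.73 ± 0.19 and 2.74 ± 0.07 in Q111 mice. The Htt difference with this range as a covariate is given above. With that covariate no gene of the 9 was called in any of the 5 contrasts.

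**Figure D3:**
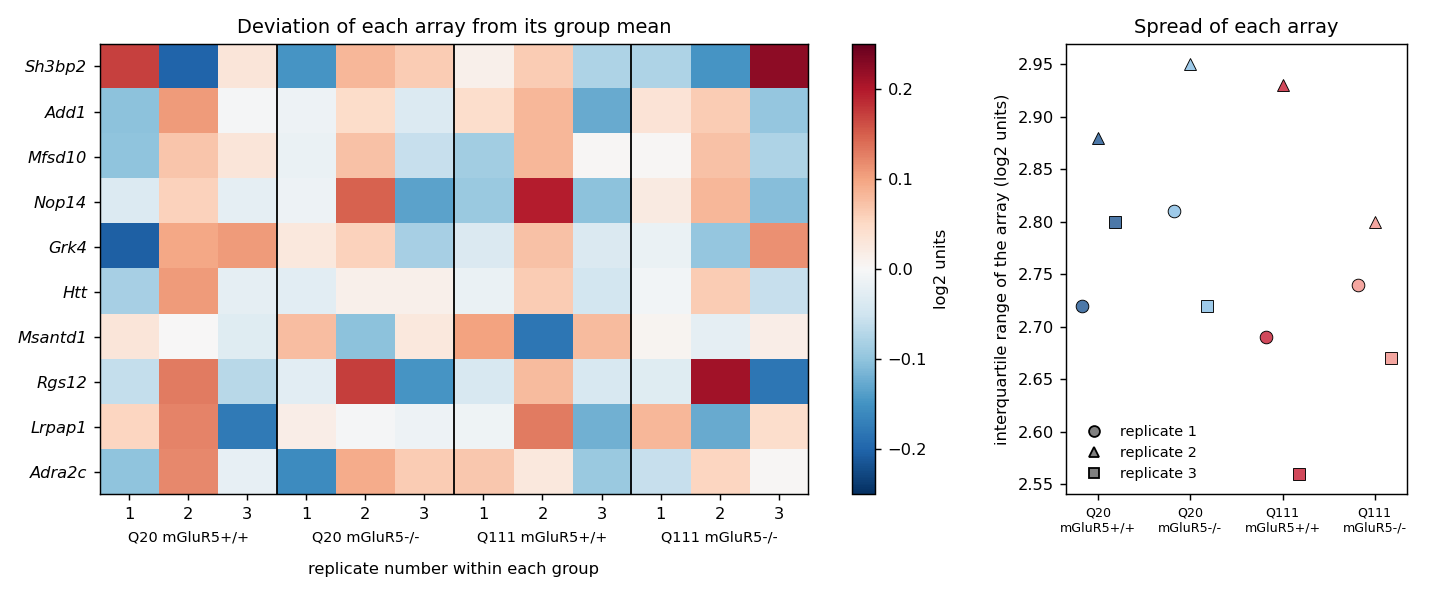
Left, deviation in log2 units of each array from the mean of its group for the 10 genes, red above and blue below; right, the interquartile range of all signals on each array. Replicate 2 has the widest range in all 4 groups, up to 2.95, and is above its group mean for Htt, Add1, Mfsd10, Nop14 and Rgs12 in all 4.

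Over the 12 arrays, the 5 named genes whose levels followed Htt most closely were Mrtfa, Aph1b, Mccc1, Fam114a2 and Nxpe4, the highest 5 of 16720. Mrtfa, a coactivator of serum response factor, had a Pearson r with Htt of 0.95. Aph1b, a subunit of gamma-secretase, and Mccc1, a mitochondrial enzyme of leucine breakdown, had 0.94 each, and Fam114a2 and Nxpe4 had 0.93. These values come from arrays that share the allele difference and the array-wide spread. With group means subtracted r was 0.87, 0.86, 0.91, 0.78 and 0.90. Of the flanking genes Rgs12 followed Htt most, with r = 0.77 (place 521 of 16720), then Mfsd10 with 0.62 and Add1 with 0.52, while Msantd1 stood at 0.01 and Sh3bp2 at -0.43. With group means subtracted the order was another: Add1 had 0.87, Mfsd10 0.75, Rgs12 0.72 and Adra2c 0.69, while Msantd1 had -0.51 and Sh3bp2 -0.55. The 5 genes were picked by likeness to Htt on these same arrays, where Htt read lower in Q111. Tests of the allele on them are therefore not independent of the pick. Nxpe4 was lower in Q111 mice and passed the test (-0.50 ± 0.07, SE, limma adjusted p = 0.00118), from 7.55 to 7.87 on Q20 arrays to 7.13 to 7.33 on Q111 arrays. Fam114a2 passed too (-0.35 ± 0.07, adjusted p = 0.0316), but lost the call in 10 of 12 cases with 1 array left out (adjusted p = 0.0596 to 0.0995). It kept the call when replicate 1 of Q20 or replicate 2 of Q111, both with mGluR5, was dropped. Fam114a2 also lost it in a linear model without moderation (0.0927) and without the arrays of narrowest and widest interquartile range (0.104). By the stated criteria neither Nxpe4 nor Fam114a2 was called.

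The stretch of chromosome 5 around these genes was read next, by order of tested genes. Of the 50 tested genes within 25 places of Htt on either side, none was called in any of the 5 contrasts, and of the 100 within 50 places again none. The called share of all tested genes was itself only 0.293% to 1.32% in these contrasts. In the averaged Q111 effect 36 of the 50 stood below 0, against 56.6% of all tested genes. Their median was -0.03, beside -0.02 over all tested genes, and 1 had an unadjusted p below 0.05. Of the 200 within 100 places 1 was called there, against 1.32% of all tested genes, and 9 had an unadjusted p below 0.05, against 11.4%. It was Tlr1, a bacterial lipoprotein receptor, 97 places from Htt. Tlr1 had group means of 5.89 and 6.11 in Q20 mice with and without mGluR5 and of 5.39 and 5.41 in Q111 mice. All 6 Q111 arrays of Tlr1 lay below the filter level, so it entered the test through the Q20 arrays alone, and its call is counted here but supports no size of change. In the loss of mGluR5 1 of the 200 was called, against 0.293% of all tested genes. The called gene was Sod3, extracellular superoxide dismutase, 73 places away (-0.47 ± 0.08, limma adjusted p = 0.0193). Both are named after their values were seen. The Sod3 call ended without replicate 1 or 3 of the Q20 mice with mGluR5, replicate 1 or 2 of the Q20 mice without, replicate 1 of the Q111 mice with or replicate 3 of the Q111 mice without (adjusted p = 0.0621 to 0.0719). It also ended in a linear model without moderation (0.155), without the arrays of narrowest and widest interquartile range (0.0911) and by the stated criteria.

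**Figure D4:**
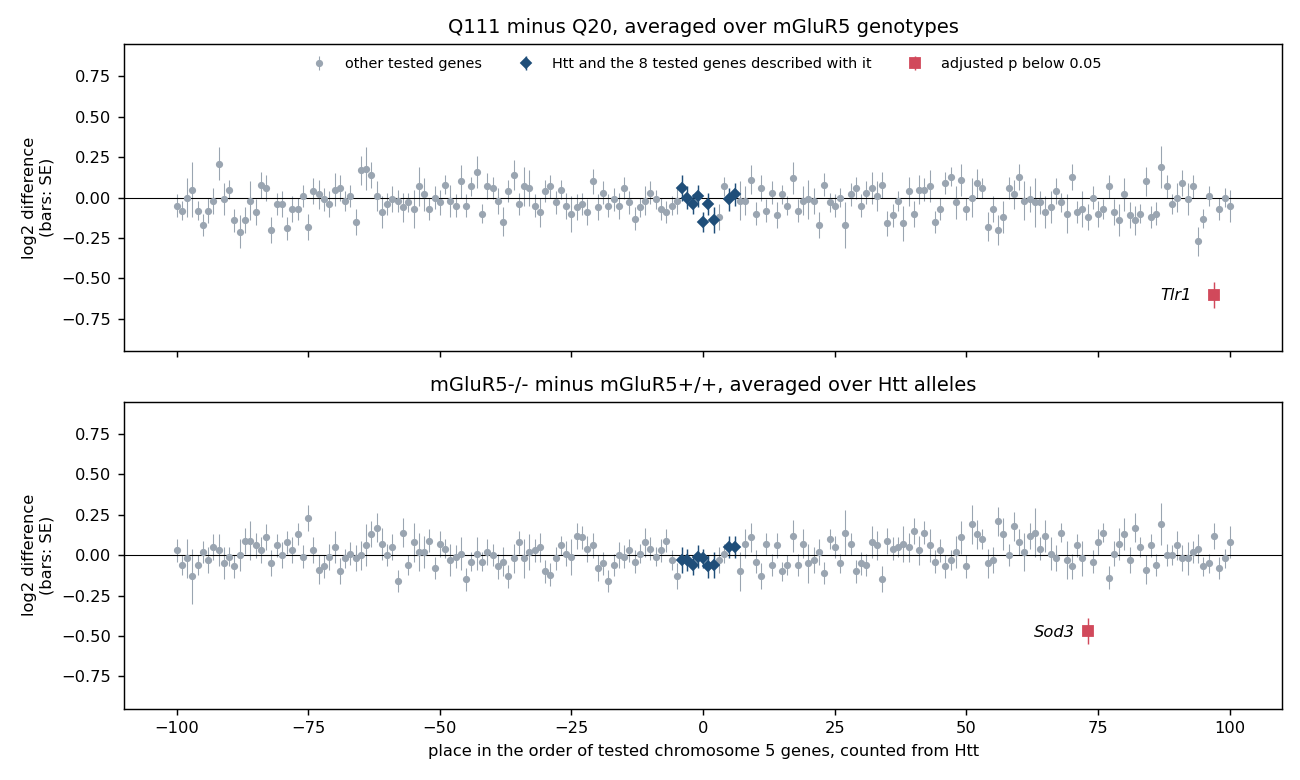
Log2 differences of Htt and the 200 tested chromosome 5 genes nearest to it in order, 100 on each side (bars: SE), for the averaged Q111 effect (top) and the averaged loss of mGluR5 (bottom). Htt and the tested genes described with it lie near 0 in the middle, and the called genes are Tlr1 at 97 places and Sod3 at 73.

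A list of other genes linked to Htt by position held 37 tested genes, of which 35 lay within 100 places of Htt. None of these 35 was called in any contrast, where 0.293% to 1.32% of all tested genes were. In the averaged Q111 effect 24 of 35 stood below 0, against 56.6% of all tested genes. Nsd2, a histone methyltransferase 13 places before Htt, stood at -0.13 ± 0.07 (SE, limma adjusted p = 0.474) and Msx1, a homeobox factor 35 places after it, at -0.16 ± 0.08 (adjusted p = 0.473). The remaining pair, Idua and Fgfrl1, lie 313 and 315 places away in the mouse. Idua, a lysosomal enzyme, had means of 8.94 ± 0.15 (SD, n = 3) and 7.96 ± 0.10 in Q20 mice with and lacking mGluR5, and of 8.71 ± 0.16 and 8.70 ± 0.03 in the corresponding Q111 mice. Its interaction was called (0.97 ± 0.15, SE, adjusted p = 0.00779), with the 3 arrays of Q20 mice without mGluR5 lowest. That call was lost with both arrays at the ends of the interquartile range left out (0.0512) or in a linear model without moderation (0.0688). Idua was also called for the Q111 effect without mGluR5 (0.74 ± 0.10, adjusted p = 0.0021) and for the loss of mGluR5 (-0.50 ± 0.07, adjusted p = 0.00594, but 0.0588 without moderation). Its Q111 effect with mGluR5 was -0.23 ± 0.10, and the averaged effect, 0.25 ± 0.07, was not called (adjusted p = 0.142).

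Lists of genes that work with, or are related to, Htt or its neighbours were read in the averaged Q111 effect. No gene of them was called by limma there or in the other 4 contrasts. The called share of all tested genes was itself low, 1.32% in the averaged Q111 effect and 0.293% to 0.885% in the other contrasts. The median over all tested genes was -0.02. Of 24 huntingtin partners 17 stood below 0 (56.6% of all tested genes), the median was -0.06 and 1 had an unadjusted p below 0.05 (11.4% of all). The smallest p-values among them belonged to Ndfip1, an adaptor of ubiquitin ligases (-0.14 ± 0.06, SE), Hap1, the huntingtin-associated protein of vesicle transport (-0.17 ± 0.09), and Sh3gl2, an endophilin of synaptic vesicles (-0.14 ± 0.07). Of 17 regulators of G protein signalling, the wider family of Rgs12, 13 stood below 0 and the median was -0.09, and 3 had an unadjusted p below 0.05, beside the same 56.6% and 11.4% of all tested genes.

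Rgs4, abundant in striatum, came nearest to a call among those regulators, at -0.29 ± 0.07 (SE, limma adjusted p = 0.0595). It read 10.82 to 11.07 on Q111 arrays and 10.93 to 11.41 on Q20 arrays, so the alleles overlapped. Its adjusted p fell below 0.05 when, among mice with mGluR5, replicate 3 of Q20 (0.0318) or replicate 2 of Q111 (0.0212) was dropped. Rgs4 was also called with an intensity trend (0.0191), the replicate number as a block (0.015), quantile normalization (0.0269) and the interquartile range as a covariate (0.0391). Calls over all tested genes, 221 in the main fit, were 137 and 511 with the named arrays dropped. In the latter settings they were 239, 487, 300 and 488, in the order given. Rgs14, close kin of Rgs12, stood at -0.29 ± 0.08 (adjusted p = 0.141), with a call under the block (0.0182) and array weights (0.0445). Rgs5, known from pericytes, stood at -0.18 ± 0.07. The estimate of the array weights stopped before it converged, so calls under that setting, here and below, are uncertain.

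For the counts that follow, 56.6% of all tested genes stood below 0 and 11.4% had an unadjusted p below 0.05. Of 6 other kinases and arrestins of G protein-coupled receptors, listed beside Grk4, 4 stood below 0 and 0 had an unadjusted p below 0.05. Among them were Arrb2 (-0.14 ± 0.09, SE), Grk6 (-0.07 ± 0.07) and Arrb1 (-0.07 ± 0.07). Of 13 genes of the adducin and spectrin skeleton 9 stood below 0 and 2 had an unadjusted p below 0.05. The adducins beside Add1 differed in sign, with Add2 at -0.23 ± 0.07 and Add3 at 0.16 ± 0.06, and Epb41l2 stood at -0.17 ± 0.08. Of 10 receptors of the LDL family, the clients of Lrpap1, 8 stood below 0 and 1 had an unadjusted p below 0.05, Lrp8 at 0.13 ± 0.06. Lrp4 stood at -0.12 ± 0.07 and Vldlr at -0.09 ± 0.07. Of 28 genes of the small-subunit processome, in which Nop14 works, 23 stood below 0, the median was -0.06 and 3 had an unadjusted p below 0.05, namely Imp4 (-0.22 ± 0.06), Heatr1 (0.19 ± 0.07) and Utp18 (-0.39 ± 0.14). The list of adrenergic receptors beside Adra2c held 1 measured gene, and 0 were tested. That count is of the list and not of all such receptors on the array. Without replicate 2 of Q111 with mGluR5, the averaged Q111 effect was called by limma for Add2 (adjusted p = 0.0333), Imp4 (0.0292), Rgs14 (0.0434) and Aph1b (0.0416). Calls over all tested genes rose in that case too, from 221 to 511. They were 488 with the interquartile range as a covariate, 487 with the block, 391 with array weights and 300 with quantile normalization. Add3 was called with the interquartile range as a covariate (0.0418), and Idua with that covariate (0.0343) or quantile normalization (0.0307). Aph1b was called with the block (0.0452). With array weights, whose estimate stopped before it converged, Imp4 (0.0421) and Aph1b (0.0395) were called.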

How the data were processed

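Per the submitters' processing notes, which name Partek and RMA, the authors deposited 1 log2 value per probe set and array. RMA in its usual form corrects background, normalizes by quantiles and summarises probes by median polish. The series text names Partek Genomics Suite 6.5. Genome build and probe positions are not given in the sources used here. Of 35556 probe sets 21789 had 1 gene symbol in the platform annotation, 1621 several and 12146 none. Each gene took the set with the highest mean, and genes were ordered by their RefSeq positions on GRCm38.p6.

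Genes were fitted with limma 3.58.1 in R 4.3.3, 1 mean per group over 12 arrays, with 8 residual and 6.88 prior degrees of freedom, two-sided, with Benjamini-Hochberg adjustment over 16721 genes. The scripts were tested on simulated data. Intervals are 95% and unadjusted. The genes and lists were chosen with earlier results of these data known. Named genes were the 10, Grm5, the 5 most correlated with Htt, any called gene within 25 places of Htt (there was none) and the 3 lowest p-values of each list. Tlr1, Sod3 and Fgfrl1 fall outside this rule and were named after their values were seen. Not named were predicted genes, small non-coding RNAs and receptors of the olfactory and vomeronasal families. Alternatives covered the model, the normalization, the filter, covariates and leaving out arrays. Plots used matplotlib 3.10.9 in Python 3.11.15.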

Additional observations from a re-analysis of the deposited data

How the results depend on the processing

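Over 1053 values of the 9 tested genes under the alternatives, 1 was called, Sh3bp2 in the Q111 effect without mGluR5 with array weights (0.22 ± 0.07, adjusted p = 0.0448). The estimate of those weights stopped before it converged, and the same setting called 3270 of all genes there. It makes 1 of the 9 genes called in that contrast. Uncalled values of the 9 genes changed sign in 82 of the 1053 cases. With 1 array left out, 0 of the 9 were called in all 5 contrasts and all 12 cases.

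Counts over all tested genes moved more. For the averaged Q111 effect the count was 221, against 123 with an unmoderated linear model, 51 by the stated criteria, 391 with array weights, 488 with the interquartile range as a covariate (48.8% of them higher, against 37.6%) and 119 to 511 with 1 array left out, reached when replicate 2 of Q111 mice with mGluR5 was dropped. With mGluR5 it was 96, against 35 unmoderated, 47 on the compared groups alone, 44 with array weights, 266 with the covariate and 44 to 128 with 1 array left out. Without mGluR5 it was 148, against 91 unmoderated, 353 with the covariate, 94 without both arrays at the ends of the interquartile range (an alternative chosen after seeing the data) and 74 to 232 with 1 array left out. For the loss of mGluR5 it was 49 (42.9% higher, 53.5% with median centring), against 23 unmoderated, 17 by the stated criteria, 74 with array weights, 170 with the covariate and 29 to 60. For the interaction it was 73, against 19 unmoderated, 165 by the stated criteria, 153 with the covariate, 38 without both end arrays and 34 to 69. The cause was not tested.

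Same-numbered arrays of different groups shared deviations unevenly (correlation above 0.1 in 11 of 18 pairs, -0.14 to 0.57), so the replicate number was not taken as a pairing. As a block it gave 487, 204, 343 and 79 calls for the averaged, with-mGluR5, without-mGluR5 and mGluR5 effects, and 0 of the 9 genes in each; Htt stood at -0.15 with an adjusted p of 0.169. Without any block, 9 of 12 arrays matched best an array of their own number, which is a hint from the data and not part of the design.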
